A study of Mus musculus with 12 samples.

Results

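The hypoxia-response genes described here are 10 genes that cells use to sense low oxygen or to answer it: Hif1a, Egln1, Egln3, Bnip3, Ddit4, Ndrg1, Ankrd37, Adm, Car9 and P4ha1. They were found by symbol in both deposited tables, 10 of the 55401 genes listed in each, and all 10 symbols matched 1 gene. The list was selected on measured values, the FPKM values of these same samples, including the comparison of NAD+ with Ctrl in both conditions, so the values of the 10 genes are given as a description, with counts of calls but without p-values. RNA-seq was performed with adult mouse neural stem/progenitor cells (aNSPCs), which were isolated from the forebrain of C57BL/6 mice aged 8 to 10 weeks and grown with EGF and FGF-2. The 12 samples form 4 groups of 3, namely proliferating aNSPCs without added NAD+ (Ctrl) or with 1 mM NAD+, and aNSPCs differentiating with retinoic acid (1 µM) and forskolin (5 µM), again as Ctrl or with 1 mM NAD+. All 12 samples share the strain, the tissue and the culture of isolated cells. The titles name NAD+ for 6 samples, whereas the treatment field of the labels reads untreated for all 12, and the groups follow the titles. No source used here gives the length of the NAD+ exposure for the RNA-seq samples, or the oxygen level of the cultures.

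When oxygen is plentiful, the prolyl hydroxylases encoded by Egln1, Egln2 and Egln3 mark HIF-1α protein, which the Vhl ubiquitin ligase then sends to the proteasome. When oxygen falls, HIF-1α escapes this mark, pairs with ARNT and binds the short hypoxia response element in target genes. The target genes include those of glucose uptake, glycolysis, mitophagy and blood vessel growth, and Egln1 and Egln3 themselves. This control acts mainly on HIF-1α protein, so the mRNA level of Hif1a is no measure of HIF-1 activity. Neural stem cell cultures are known to respond to oxygen tension and to rely on glycolysis while they divide.

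Upstream sequence was available for 9 of the 10 genes (all but Ndrg1) in RefSeq windows of GRCm38.p6, the assembly called mm10. The core letters of the hypoxia response element, ACGTG or GCGTG on either strand, lie in all 9 windows of 250 bases before the gene start that RefSeq gives. For Ankrd37 and Hif1a, GENCODE has longer gene models that begin further upstream, so their windows lie inside those models. The only match of Car9 and 1 of the 2 matches of Egln1 lie past the gene start that GENCODE gives. The core letters lie in 38.6% of all 32851 windows of this length and in 54.4% of the 14414 windows of genes tested under proliferating conditions. A match describes letters in a window, not a site bound by HIF-1, and overlapping matches were counted separately. The windows of Egln3 (chr12:54203875-54204124), Bnip3 (chr7:138909520-138909756), Ddit4 (chr10:59951835-59952020) and Ankrd37 (chr8:45999868-46000100) are printed below as examples. Each is from the minus strand, 5′ to 3′, without bases that GENCODE annotates as exon, and with every match in capitals.
Egln3: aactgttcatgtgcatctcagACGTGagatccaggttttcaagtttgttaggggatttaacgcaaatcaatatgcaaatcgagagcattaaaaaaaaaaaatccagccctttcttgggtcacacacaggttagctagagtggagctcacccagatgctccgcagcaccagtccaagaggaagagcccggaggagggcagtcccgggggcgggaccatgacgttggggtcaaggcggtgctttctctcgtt
Bnip3: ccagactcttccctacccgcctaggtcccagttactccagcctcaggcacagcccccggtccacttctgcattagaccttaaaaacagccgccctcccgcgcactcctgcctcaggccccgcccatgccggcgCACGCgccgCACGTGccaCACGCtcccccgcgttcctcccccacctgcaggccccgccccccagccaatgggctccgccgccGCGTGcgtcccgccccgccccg
Ddit4: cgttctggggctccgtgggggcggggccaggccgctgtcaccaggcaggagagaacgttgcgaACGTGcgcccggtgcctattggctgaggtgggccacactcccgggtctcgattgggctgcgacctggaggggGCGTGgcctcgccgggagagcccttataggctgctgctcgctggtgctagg
Ankrd37: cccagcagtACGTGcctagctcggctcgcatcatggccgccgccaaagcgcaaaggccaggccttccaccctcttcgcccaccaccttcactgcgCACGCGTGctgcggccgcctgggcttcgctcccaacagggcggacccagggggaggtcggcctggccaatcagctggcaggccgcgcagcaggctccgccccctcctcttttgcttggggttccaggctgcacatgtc

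The Egln3 window has 1 match, that of Ddit4 has 2 and that of Bnip3 has 5, of which a pair shares the palindrome CACGTG. The printed bases of Ankrd37 hold 3 of its 4 matches, and the other one lies in the bases left out.

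FPKM values count fragments relative to transcript length and to all fragments of a sample, and thereby allow levels to be compared between genes. In proliferating Ctrl samples the mean level was highest for Ddit4 at 154 ± 22.0 FPKM (SD, n = 3), followed by Egln1 at 61.3 ± 7.75, Bnip3 at 44.7 ± 3.96, Hif1a at 41.4 ± 0.0513 and P4ha1 at 27.4 ± 1.81. Bnip3 and Hif1a did not differ beyond their spread, since the 3 Bnip3 values lay between 41.45 and 49.13 and the 3 Hif1a values between 41.39 and 41.49. Egln3 at 14.9 ± 1.56 and Adm at 10.5 ± 1.94 came next, followed by Ndrg1 at 3.59 ± 0.539 and Ankrd37 at 2.04 ± 0.255. Car9 was lowest at 0.263 ± 0.125 FPKM. Under differentiation conditions the order in Ctrl samples was Ddit4 (52.1 ± 4.75), Hif1a (24.4 ± 0.385), P4ha1 (20.0 ± 2.81), Egln1 (17.7 ± 2.86), Bnip3 (12.2 ± 2.85), Egln3 (1.29 ± 0.115), Adm (0.697 ± 0.644), Ankrd37 (0.480 ± 0.168), Ndrg1 (0.440 ± 0.0529) and Car9 (0.0433 ± 0.0751). P4ha1 and Egln1 overlapped in these samples, as did Adm, Ankrd37 and Ndrg1. Through 1 high sample each, Bnip3 (15.40) also overlapped with Egln1 (lowest 15.30), and Adm (1.44) with Egln3 (1.16 to 1.38).

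**Figure D1:**
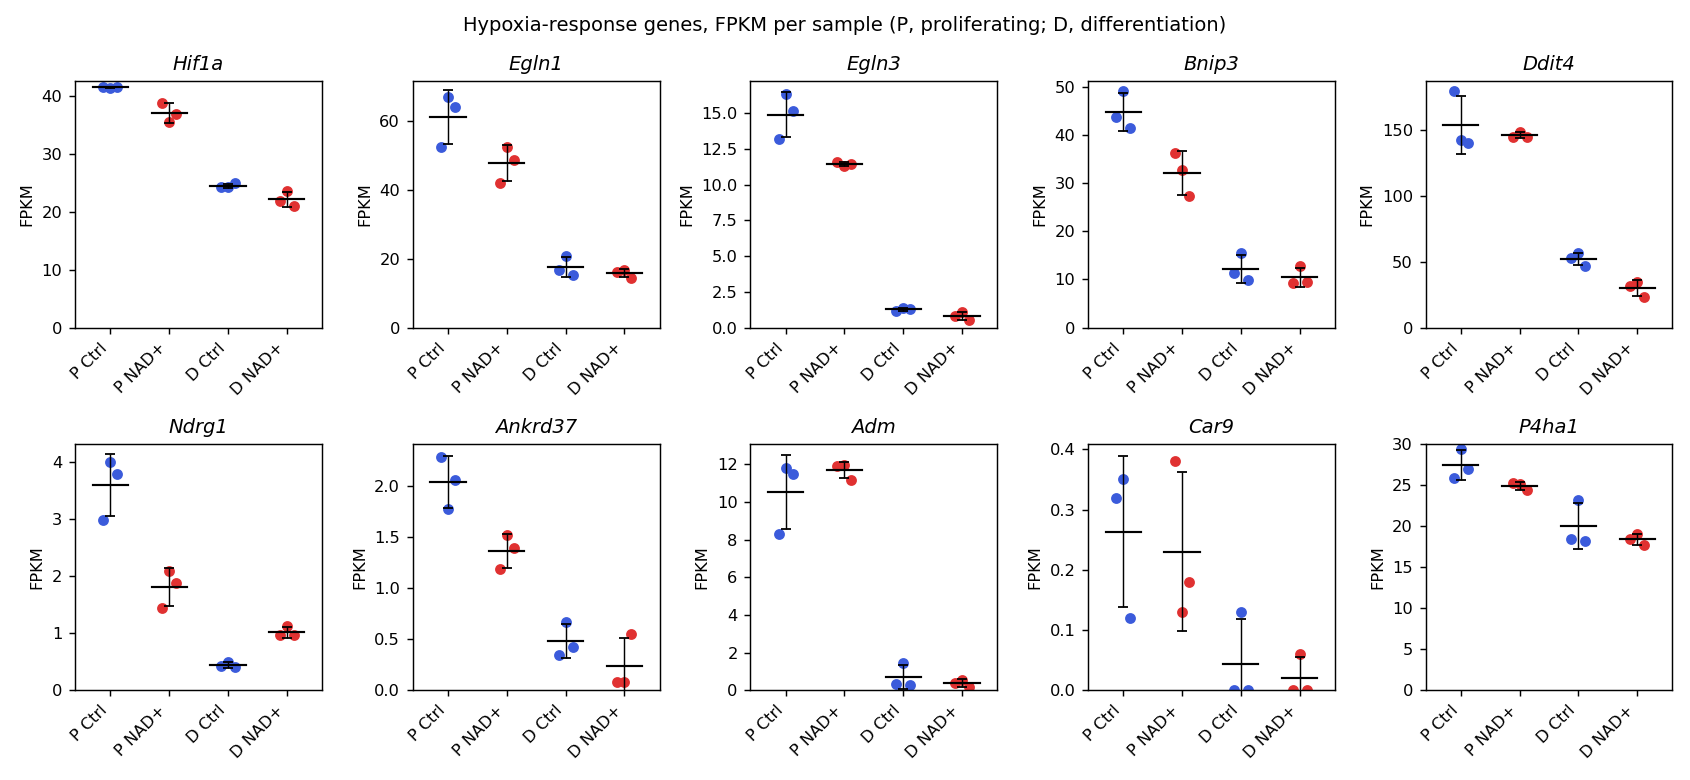
FPKM of each gene (y axis from 0, own scale per panel) in each of the 12 samples, with the mean (long line) and SD (error bar) of 3 samples per group, for proliferating (P) and differentiation (D) conditions. For Ndrg1 the NAD+ samples lie below Ctrl in proliferating aNSPCs and above Ctrl under differentiation conditions.

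The first question was how the level of these genes differed between the 2 culture conditions. The conditions were deposited in separate tables that may have been scaled apart, so levels are set side by side without a test. All 6 genes with a mean of at least 1 FPKM in both tables had a higher mean in the proliferating samples, by a median factor of 3.21 in Ctrl and 3.05 with NAD+. Among all 11648 genes at this level, 61.6% were higher in the proliferating Ctrl samples, with a median factor of 1.16, and 68.5% in the proliferating NAD+ samples, with a median factor of 1.29. In Ctrl the factor was 11.5 for Egln3, the prolyl hydroxylase whose own gene is a strong HIF-1 target, 3.67 for Bnip3, 3.47 for Egln1 and 2.95 for Ddit4. It was smaller for Hif1a (1.70) and P4ha1 (1.37). Of the genes below 1 FPKM under differentiation conditions, Adm had a ratio of 15.1, Ndrg1 of 8.16 and Ankrd37 of 4.26 in Ctrl. With NAD+, the ratio of Ndrg1 was 1.78, that of Adm was 31.1 and that of Ddit4 was 4.89. For each of these 9 genes the 2 conditions were apart without overlap, in Ctrl and with NAD+. The share of all genes that were apart in this way was not counted, so nothing is read from this. In bulk samples, fewer cells that express a gene and less RNA per cell cannot be told apart. Marker genes of neural stem/progenitor cells (Nes, Sox2, Vim and Fabp7) summed to between 2471 and 2720 FPKM in proliferating Ctrl samples and to between 708 and 796 under differentiation conditions, while 6 astrocyte markers summed to between 542 and 597 and to between 1149 and 1260. The first sum rested mostly on Fabp7 (Ctrl means of 2107 in proliferating samples and 449 under differentiation conditions), and Nes, Sox2 and Vim also had lower means. The second rested mostly on Gfap (19.1 and 595), and Aqp4, Slc1a2 and Slc1a3 also had higher means. S100b went the other way (163 and 94.8), and Aldh1l1 was nearly level (92.3 and 93.5). The part of these marker differences in the levels of the hypoxia-response genes was not tested.

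**Figure D2:**
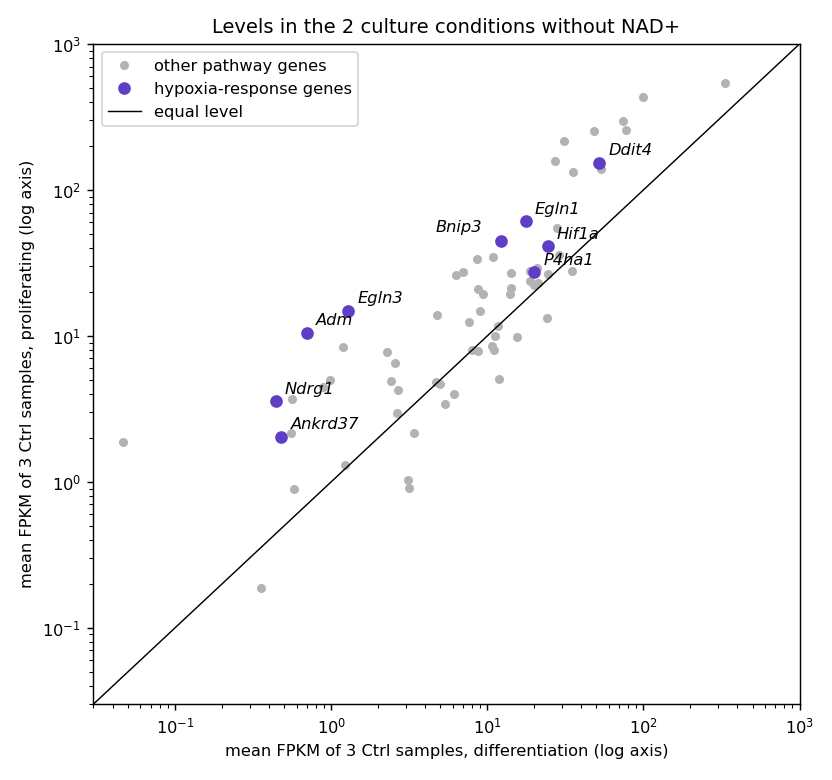
Mean FPKM of 3 Ctrl samples under differentiation (x axis) and proliferating (y axis) conditions, both on log axes, for 9 hypoxia-response genes (labelled) and other pathway genes (grey), with the line of equal level. Car9, listed at 0 in part of the samples, and other genes with a sample at 0 are not drawn. All 9 labelled genes lie above the line.

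In the proliferating aNSPCs, 9 of the 10 genes had a lower mean level with NAD+ than in Ctrl, and the exception was Adm. Their median log2 fold change (NAD+ minus Ctrl, on the log2(FPKM + 0.1) scale, which understates changes of low genes) was -0.26, while that of all 18597 tested genes was 0.07 and 40.3% of all tested genes had a lower mean (48.6% with median-ratio scaling). None of the 10 genes had an adjusted p-value under 0.05 (limma, Benjamini-Hochberg), as against 0.145% of all tested genes, and 5 had an unadjusted p-value under 0.05, as against 15.4%. None passed the study's rule of an unadjusted p-value under 0.05 with more than a 2-fold difference of mean FPKM, which 3.01% of all tested genes passed. The rule was applied here with the limma p-values, so its calls are not those of the study. For 6 genes the 3 Ctrl and 3 NAD+ values did not overlap, all 6 with lower values in NAD+, and 24.1% of all tested genes did not overlap. Nothing is read from these counts, because the choice of the genes used this comparison. Sums of cell type markers moved in the same comparison. The neural stem/progenitor markers summed to between 1489 and 1992 FPKM with NAD+ and to between 2471 and 2720 in Ctrl. This fall lay mostly in Fabp7, with a mean of 2106.6 in Ctrl and 1316.5 with NAD+. Nes had a higher mean with NAD+ (68.8 in Ctrl and 82.0 with NAD+), and Sox2 (225 and 216) and Vim (187 and 182) differed little. The oligodendrocyte lineage markers summed to between 1046 and 1075 with NAD+ and to between 1296 and 1420 in Ctrl. No single marker passed an adjusted p-value of 0.05 (limma). The part of cell types in the values of the hypoxia-response genes was not tested.

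Hif1a, which encodes the oxygen-regulated subunit of HIF-1, was at 41.42, 41.39 and 41.49 FPKM in the proliferating Ctrl samples and at 38.74, 35.44 and 36.84 FPKM with NAD+. Its groups did not overlap, and the difference was small (log2 fold change -0.16, SE 0.07). Hif1a shares 330 of 5896 exonic bases with Gm15283 on the other strand, which was at or below 0.42 FPKM in all 12 samples, and 148 with Gm49321 on its own strand.

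Egln1, the main hydroxylase that marks HIF-1α, was at 52.51, 67.21 and 64.13 FPKM in Ctrl and at 42.16, 52.54 and 48.92 FPKM with NAD+. The highest NAD+ value exceeded the lowest Ctrl value by only 0.03 FPKM, so the groups just overlapped (log2 fold change -0.35, SE 0.13). Egln3 was at 13.23, 16.32 and 15.15 FPKM in Ctrl and at 11.61, 11.29 and 11.45 FPKM with NAD+, without overlap (log2 fold change -0.37, SE 0.10). The spread of Egln3 was narrower with NAD+ (SD 0.160) than in Ctrl (SD 1.56).

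Bnip3, a mitochondrial outer membrane protein that promotes mitophagy, was at 43.60, 49.13 and 41.45 FPKM in Ctrl and at 36.30, 32.71 and 27.31 FPKM with NAD+. All 3 NAD+ samples were below all 3 Ctrl samples (log2 fold change -0.48, SE 0.13). The antisense gene Gm45507 covers 504 of the 2265 exonic bases of Bnip3 (22.25%), was listed at 0 in all samples, and reads from the shared bases cannot be told apart where strand was not used in counting. Ddit4, which restrains mTORC1 under stress, was at 178.99, 142.34 and 139.55 FPKM in Ctrl and at 144.62, 148.31 and 144.29 FPKM with NAD+. The mean difference of Ddit4 rests on the first Ctrl sample (log2 fold change -0.07, SE 0.11), and without it the value was 0.05. The sum of FPKM values ranged from 311160 to 363330 over the 3 proliferating Ctrl samples and from 308830 to 314680 over the 3 proliferating NAD+ samples.

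Ndrg1, a stress-responsive gene linked to differentiation and growth arrest that is also known from myelinating cells, showed the largest difference of the 10. It was at 2.98, 4.0 and 3.79 FPKM in the proliferating Ctrl samples and at 1.44, 2.09 and 1.88 FPKM with NAD+. The groups did not overlap, and the mean with NAD+ was 0.502 of that in Ctrl (log2 fold change -0.96, SE 0.19). Ankrd37, an ankyrin repeat protein whose gene is a direct HIF-1 target, was at 2.29, 1.78 and 2.06 FPKM in Ctrl and at 1.19, 1.52 and 1.39 FPKM with NAD+, again without overlap (log2 fold change -0.55, SE 0.17). Of its 1539 exonic bases, 349 (22.68%) are shared with Lrp2bp on the other strand, whose mean was 0.420 FPKM in Ctrl and 0.753 FPKM with NAD+. A further 57 bases (3.7%) are shared with Ufsp2, also on the other strand, whose mean of 5.96 FPKM in Ctrl and 6.38 FPKM with NAD+ was above that of Ankrd37, and which was at 3.78 and 3.88 FPKM under differentiation conditions.

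Adm, the secreted vasoactive peptide adrenomedullin, was at 8.30, 11.82 and 11.49 FPKM in Ctrl and at 11.94, 11.99 and 11.20 FPKM with NAD+. Its groups overlapped, and the low first Ctrl sample set the size of the difference (log2 fold change 0.17, SE 0.15, and 0.01 without that sample). Car9, a carbonic anhydrase of the cell surface that is induced strongly in hypoxic tumours, was at 0.32, 0.35 and 0.12 FPKM in Ctrl and at 0.38, 0.13 and 0.18 FPKM with NAD+, with overlap (log2 fold change -0.14, SE 0.42). P4ha1, a subunit of the enzyme that hydroxylates proline in collagen, was at 25.93, 29.45 and 26.94 FPKM in Ctrl and at 25.24, 25.10 and 24.40 FPKM with NAD+. The P4ha1 groups did not overlap, and the difference was small (log2 fold change -0.14, SE 0.08).

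Under differentiation conditions, Car9 was at 0.13 FPKM in 1 Ctrl sample, at 0.06 FPKM in 1 NAD+ sample and listed at 0 in the other 4, and it did not reach the minimum mean of 0.1 FPKM. Of the other 9 genes, 8 had a lower mean with NAD+ and only Ndrg1 had a higher one, with a median log2 fold change of -0.21. Over all 19611 tested genes the median was -0.08, and 61.8% of the genes had a lower mean (51% with median-ratio scaling). Ndrg1 (higher) and Ddit4 (lower) had an adjusted p-value under 0.05 (limma), 2 of 9, as against 6.92% of all tested genes. The call of Ndrg1 was lost without any 1 of the 6 samples (log2 fold change from 0.98 to 1.12), and that of Ddit4 without any 1 Ctrl sample or without NAD+ replicate 1 (from -0.94 to -0.64 over all leave-outs). Over all tested genes the number called also fell, from 1357 to between 328 and 719 with a sample left out. Ndrg1 alone passed the study's rule, as against 4.05% of all tested genes. For 4 genes the groups did not overlap, 1 higher and 3 lower with NAD+, as against 30.7% of all tested genes, and again nothing is read from these counts.

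Ndrg1 was at 0.42, 0.50 and 0.40 FPKM in the differentiation Ctrl samples and at 0.96, 1.12 and 0.96 FPKM with NAD+. Every NAD+ sample was above every Ctrl sample, and the mean was 2.30 times that of Ctrl (log2 fold change 1.05, SE 0.17). Since 1 FPKM is low, the size depends on the number added before log2, with 0.48 when 1 was added and 1.19 when 0.01 was added. The antisense genes Gm17035 and Gm2895, which share 419 and 137 of the 6596 exonic bases of Ndrg1, were at or below 0.03 FPKM in every sample. The sum of 6 astrocyte markers was higher in the same comparison, between 1646 and 1671 FPKM with NAD+ and between 1149 and 1260 in Ctrl. Of the 6, 3 were higher and 1 lower at an adjusted p-value under 0.05 (limma). The rise lay mostly in Gfap (mean of 595 in Ctrl and 977 with NAD+), while Aldh1l1 (93.5 and 61.3) and Aqp4 (34.8 and 27.8) had lower means with NAD+. The 9 markers of the oligodendrocyte lineage had a lower sum, between 417 and 436 FPKM with NAD+ and between 561 and 578 in Ctrl. Of the 8 tested, 2 were lower at that threshold. The part of either cell type in the Ndrg1 difference was not tested. Markers of microglia summed to at most 0.31 FPKM and those of endothelium to at most 0.19 in all 12 samples, and 3 pericyte markers to between 0.41 and 0.66 in differentiation Ctrl samples and between 1.06 and 1.42 with NAD+.

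Ddit4 was at 52.95, 56.37 and 46.98 FPKM in the differentiation Ctrl samples and at 31.87, 34.58 and 23.04 FPKM with NAD+. The groups were far apart, with the highest NAD+ sample below the lowest Ctrl sample, and the mean was 52.1 ± 4.75 in Ctrl and 29.8 ± 6.03 with NAD+ (log2 fold change -0.82, SE 0.16). Bnip3, by contrast with its values in proliferating cells, overlapped between the groups, with 11.30, 15.40 and 9.91 FPKM in Ctrl and 9.18, 12.74 and 9.45 FPKM with NAD+ (log2 fold change -0.21, SE 0.19).

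Of the hydroxylases, Egln3 was at 1.16, 1.38 and 1.33 FPKM in Ctrl and at 0.81, 1.10 and 0.54 FPKM with NAD+, without overlap (log2 fold change -0.64, SE 0.25). Egln1 was at 16.89, 20.86 and 15.30 FPKM in Ctrl and at 16.24, 16.75 and 14.44 FPKM with NAD+, with overlap (log2 fold change -0.15, SE 0.12). Hif1a was at 24.18, 24.23 and 24.87 FPKM in Ctrl and at 21.83, 23.48 and 21.01 FPKM with NAD+. The Hif1a groups did not overlap in this condition either, and the difference had a like size (log2 fold change -0.14, SE 0.06). Both depended on the scaling. With median-ratio scaling the Hif1a value was -0.06 with overlap in this condition, and -0.23 without overlap in proliferating cells.

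The remaining genes overlapped between the groups. Ankrd37 was at 0.35, 0.67 and 0.42 FPKM in Ctrl and at 0.08, 0.08 and 0.55 FPKM with NAD+, so that 2 NAD+ samples were low and 1 lay among the Ctrl samples (log2 fold change -1.03, SE 0.55, and -1.65 without that sample). Adm was at 0.35, 1.44 and 0.30 FPKM in Ctrl and at 0.40, 0.57 and 0.16 FPKM with NAD+ (log2 fold change -0.56, SE 0.61). P4ha1 was at 18.48, 23.23 and 18.26 FPKM in Ctrl and at 18.43, 19.10 and 17.72 FPKM with NAD+ (log2 fold change -0.11, SE 0.10).

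**Figure D3:**
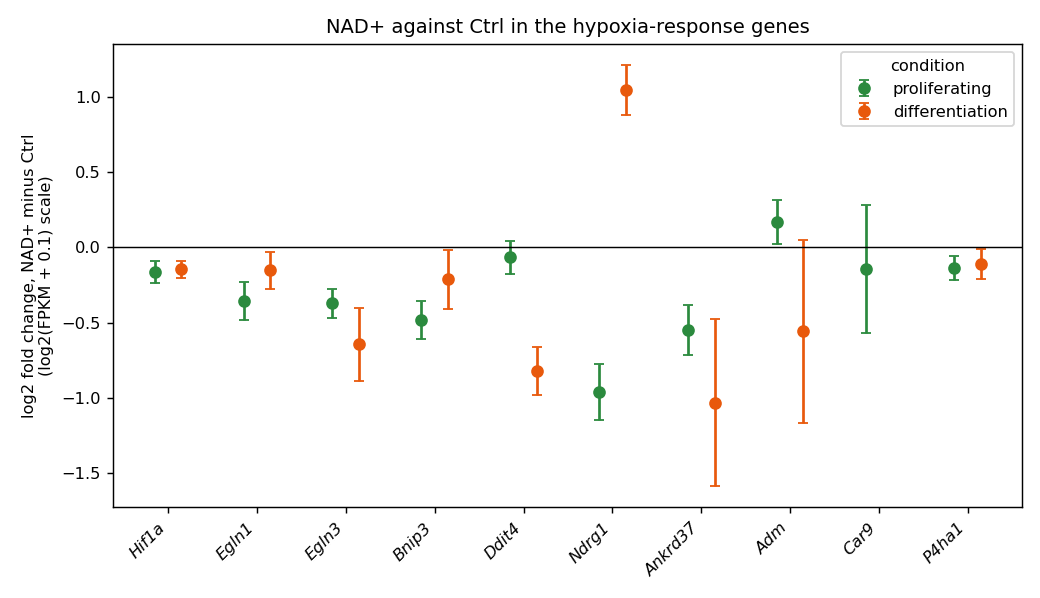
Log2 fold change of NAD+ against Ctrl (y axis, on the log2(FPKM + 0.1) scale) with its SE for each gene, proliferating and differentiation conditions side by side, 3 samples per group. Ndrg1 lies at -0.96 in proliferating cells and at 1.05 under differentiation conditions, and Car9 has no value under differentiation conditions because it was below the filter.

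The effect of NAD+ in the 2 conditions was then compared gene by gene, as the difference of log2 fold changes (differentiation minus proliferating) in a fit of all 12 samples. Ndrg1 had the largest difference, 2.00 (SE 0.24), with opposite directions in the 2 conditions. It was the only 1 of 10 genes with an adjusted p-value under 0.05 (limma), as against 0.467% of the 19498 genes tested, and this is a description as well. Ddit4 had a difference of -0.75 (SE 0.20) and Adm one of -0.72 (SE 0.66). Ankrd37 was at -0.49 (SE 0.61), and the other 6 genes had differences between -0.27 and 0.27. Over all genes tested the median difference was -0.16 without further scaling and -0.01 with median-ratio scaling, so that relative to this shift the Ndrg1 difference is somewhat larger and that of Ddit4 smaller (2.15 and -0.60 with median-ratio scaling).

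Within groups, samples stood above or below the others for many of the genes at once. Under differentiation conditions, replicate 2 was the highest of the 3 Ctrl samples for 8 of 9 genes (88.9%) and the highest of the 3 NAD+ samples for 8 of 9, whereas it was highest for 30% and 34.5% of all tested genes. The exceptions were Hif1a in Ctrl and Ankrd37 with NAD+. In proliferating Ctrl samples replicate 2 was highest for 7 of 10 genes (35.5% of all tested genes) and with NAD+ for 5 of 10 (33.7%), where replicate 1 was highest for the other 5. Vegfa, the angiogenic growth factor, had the same order in the differentiation Ctrl samples, at 8.91, 16.67 and 7.14 FPKM, and 18 of 21 glycolytic genes were highest in that library. This library bears on the comparison with NAD+. Without it, 6 of 9 genes had a lower mean with NAD+ in place of 8, the median log2 fold change was -0.03 in place of -0.21, and the values of Egln1 (-0.03), Bnip3 (-0.03), Adm (0.06) and P4ha1 (0.00) were near 0. Ndrg1 (1.12), Ddit4 (-0.76) and Egln3 kept their direction without it, Ndrg1 and Ddit4 no longer with an adjusted p-value under 0.05. Leaving out NAD+ replicate 2 moved the values the other way. The median was then -0.36 with 8 of 9 genes lower, and Bnip3 was at -0.36 without overlap of the groups. What sets the replicate 2 libraries apart was not tested.

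**Figure D4:**
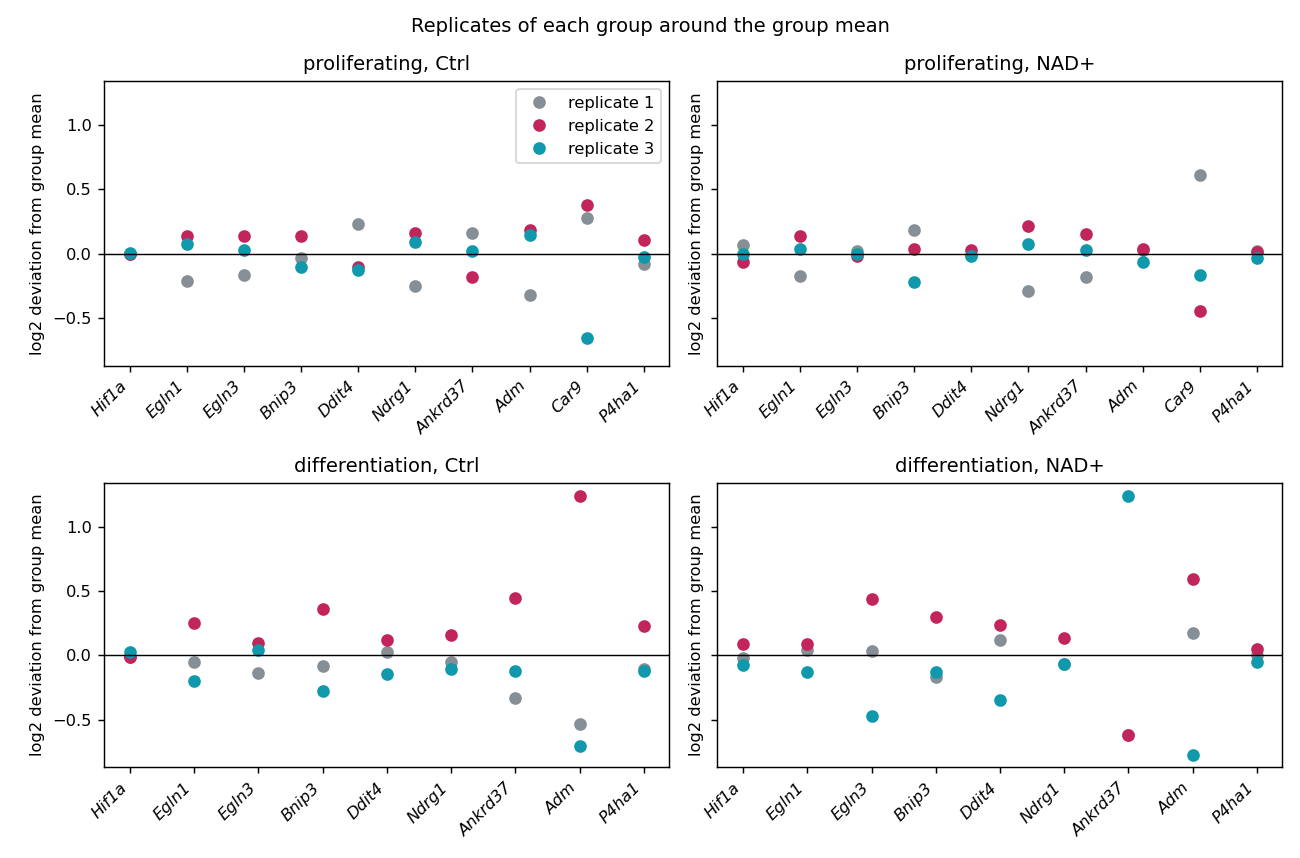
Deviation of each sample from the mean of its group of 3 on the log2(FPKM + 0.1) scale (y axis) for each tested gene, by replicate number, in the 4 groups. Under differentiation conditions replicate 2 is the highest sample for 8 of 9 genes in Ctrl and for 8 of 9 with NAD+.

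The genes with the most similar pattern over the 12 samples were found among 11648 genes with a mean of at least 1 FPKM in both tables, by Pearson r of log2(FPKM + 0.1). The difference between the 2 conditions dominates these values, and all genes share the libraries, so they are descriptions only. The closest genes to Bnip3 were Pgam1, Tpi1 and Pfkl, each at r = 0.992 over 12 samples, and all 3 encode glycolytic enzymes. The closest to P4ha1 was Vegfa at r = 0.991, followed by Pdk1 and Bnip3 at r = 0.969. Hif1a was closest to Ddah1, Idh3a and Vps45, Egln1 to Gm6136, Apln and Rap1a, and Egln3 to Ube2g1, Vps45 and Mthfd1l. Ddit4 was closest to the ribosomal protein genes Rpl35a and Rps15 and to Hes5. These r values lay between 0.993 and 0.997.

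Other genes of the pathway were taken from a list of 67 genes found in the tables, also put together with earlier results known, and these were tested. In proliferating cells, 41 of 63 tested genes had a lower mean with NAD+ and 22 a higher one. None passed an adjusted p-value of 0.05 in limma. At an unadjusted p-value under 0.05 there were 16 lower and 0 higher, while over all tested genes 6.05% were lower and 9.35% higher at this threshold. Of these 16, 13 were genes of glucose uptake and glycolysis, and none was among the 12 genes of oxygen sensing and HIF subunits. Nothing is read from these counts either, because the list was put together with earlier results of these data known. Of the 21 genes of glucose uptake and glycolysis, 20 had a lower mean, with a median log2 fold change of -0.34. Slc2a1, the glucose transporter GLUT1, was at -0.28 (adjusted p = 0.209, limma), and Vegfa was at 34.9 ± 7.25 FPKM in Ctrl and 27.4 ± 1.70 with NAD+ (adjusted p = 0.349, limma). The sensing machinery showed no called change, with log2 fold changes of 0.11 for Egln2 (adjusted p = 0.71, limma), 0.25 for Hif1an, the asparaginyl hydroxylase of HIF-α (adjusted p = 0.404), and -0.09 for Vhl (adjusted p = 0.663). Epas1, which encodes HIF-2α, was at 0.05 (adjusted p = 0.854, limma), Arnt at 0.37 (adjusted p = 0.477) and Arnt2 at 0.16 (adjusted p = 0.523). Bnip3l, the mitophagy receptor most like Bnip3, was at 0.08 (adjusted p = 0.591, limma).

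Under differentiation conditions, 41 of 60 tested pathway genes had a lower mean with NAD+ and 19 a higher one, and 4 fell and 1 rose at an adjusted p-value under 0.05 (limma). Over all tested genes 61.8% had a lower mean, 4.65% fell and 2.27% rose, so these shares are near those of all genes. Hif3a, an α subunit with isoforms that restrain HIF activity, was at 2.78, 3.31 and 3.20 FPKM in Ctrl and at 0.95, 0.76 and 0.75 FPKM with NAD+. It fell by 1.80 on the log2 scale (SE 0.14, adjusted p = 0.0037, limma), the largest fall called in the list. In proliferating cells Hif3a was at 0.92, 1.10 and 1.05 FPKM in Ctrl and at 1.10, 0.54 and 0.60 with NAD+ (adjusted p = 0.456, limma), and the effects did not differ between conditions past the threshold (difference -1.34, adjusted p = 0.0928, limma). Hk1, which phosphorylates glucose, fell from 20.0 to 13.1 FPKM (adjusted p = 0.0147, limma), and Aldoc, the aldolase of astrocytes, fell from 333 to 261 FPKM (adjusted p = 0.0475, limma). Tfrc, the transferrin receptor, fell from 24.3 to 17.8 FPKM (adjusted p = 0.00969, limma). Bhlhe40, a transcriptional repressor of the clock and stress responses, rose from 14.1 to 17.8 FPKM (adjusted p = 0.0279, limma). Of the genes of glucose uptake and glycolysis, 17 of 21 had a lower mean, with a median log2 fold change of -0.27, and Hk1 and Aldoc were the 2 that fell. The median was -0.12 without Ctrl replicate 2 and -0.36 without NAD+ replicate 2. The call of Aldoc was lost without any 1 of the 6 samples (adjusted p from 0.0711 to 0.124, limma), without the filter (0.0859), and with median-ratio scaling (0.121) or quantile normalization (0.062). That of Hk1 was lost without Ctrl replicate 3 (adjusted p = 0.0596, limma) or NAD+ replicate 3 (0.0532). The call of Bhlhe40 was lost without any 1 of the samples but NAD+ replicate 1 (adjusted p from 0.0715 to 0.1, limma). As given above, fewer of all tested genes were called too with a sample left out (328 to 719 in place of 1357). Slc2a1 was at -0.33 (adjusted p = 0.134, limma), Bnip3l at 0.21 (adjusted p = 0.226) and Vegfa at -0.56 (adjusted p = 0.32). Egln2 (0.13, adjusted p = 0.27, limma), Hif1an (0.09, adjusted p = 0.554), Vhl (-0.23, adjusted p = 0.132), Epas1 (-0.15, adjusted p = 0.144), Arnt (-0.27, adjusted p = 0.111) and Arnt2 (-0.07, adjusted p = 0.409) did not pass either. No pathway gene had an adjusted p-value under 0.05 for the difference between the conditions (limma).

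**Figure D5:**
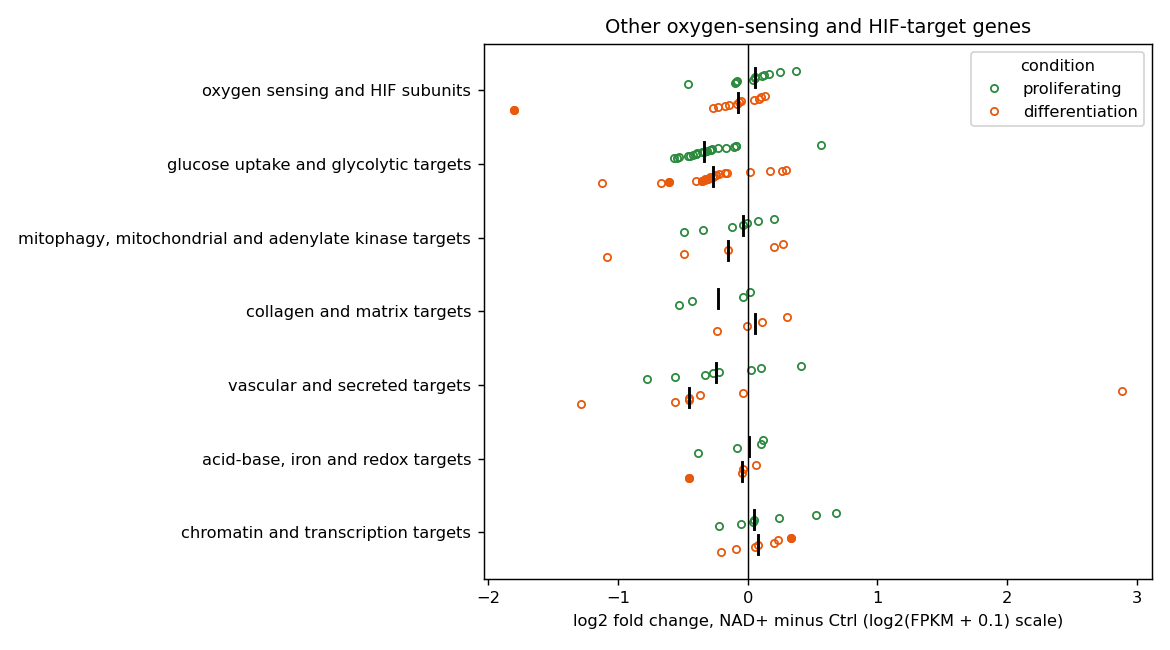
Log2 fold change of NAD+ against Ctrl (x axis, on the log2(FPKM + 0.1) scale) for the other pathway genes by list, proliferating above differentiation in each row. Each circle is a gene, filled where the adjusted p-value was under 0.05 (limma), and the black line is the median of the list, which is -0.34 and -0.27 for the glycolytic genes. The point near 3 is Epo, listed at 0 in 2 of 3 differentiation Ctrl samples, and named after its value was seen.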

How the data were processed

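Per the paper's methods, libraries were made with the NEBNext Ultra RNA kit, reads were mapped to mm10 with Hisat2 v2.0.5, and uniquely mapped reads were counted with FeatureCounts v2.0.1, so genes with near-identical copies are uncertain. The authors deposited a table of FPKM per condition, with a column per sample. The program that computed FPKM and the strand setting are not given in the sources used here, and the depth is unknown. The deposited columns of the authors' comparisons (fold change, its log2, p-values, q-values and marks of significance) were not used.

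FPKM values were used as deposited. Genes with a mean of at least 0.1 FPKM over the samples of a fit were tested on log2(FPKM + 0.1) with limma 3.58.1 in R 4.3.3 (eBayes with trend, two-sided), NAD+ against Ctrl within each table and the difference of both effects in all 12 samples, adjusted by Benjamini-Hochberg over all tested genes. The study's 2-fold rule was applied with the limma p-values and not with those of the authors, and for its ratio FPKM values of 0 were set to 0.0001. The paper calls the RNA-seq samples of a group biological repeats, but neither it nor the labels say whether they came from separate cultures. The p-values therefore measure the spread between these samples, part of which may be technical. The 10 genes, the pathway list and the rules were chosen with earlier results of these data known. All 10 genes are named. Of the pathway list, genes were named that had an adjusted p-value under 0.05 (at most 6 per list and condition), and the genes of the sensing machinery, Vegfa, Slc2a1 and Bnip3l whatever their values. Epo was named after its values were seen. Gene models came from GENCODE M21 (GRCm38) and upstream windows from RefSeq (GRCm38.p6). Fits were tested on simulated data. Alternatives were other added numbers (1 and 0.01), no filter or a minimum mean of 1 FPKM, median-ratio scaling, quantile normalization, a replicate block, and leaving out each sample. Figures were made with Python 3.11.15 and matplotlib 3.10.9.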

Additional observations from a re-analysis of the deposited data

Results flagged for a closer look

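Ndrg1 was picked out because all 3 NAD+ samples lay below all 3 Ctrl samples in proliferating cells and above them under differentiation conditions, with a difference of log2 fold changes of 2.00. The difference ranged with the alternatives, from 1.19 with 1 added before log2 to 2.27 with quantile normalization. Its direction was the same in every alternative run.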

How the results depend on the processing

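The limits are those of 3 samples per group and of rounded FPKM values without read counts, in which genes near or under 1 FPKM (Ndrg1, Ankrd37, Adm and Car9 under differentiation conditions) rest on few reads. In proliferating cells, the number of hypoxia-response genes past the study's rule went from 0 to 1 (Ndrg1) with median-ratio scaling, and was 0 to 1 when each sample was left out in turn. Under differentiation conditions, the number called by adjusted p-value (limma) went from 2 to 1 without the filter (Ddit4 lost) and to 1 with a minimum mean of 1 FPKM (where Ndrg1 was not tested), and was 0 to 1 when a sample was left out. The number past the study's rule went from 1 to 0 with a minimum mean of 1 FPKM, and was 1 to 2 with a sample left out. The number without overlap went from 4 to 2 with median-ratio scaling. Of the other pathway genes, 0 to 1 were higher and 2 to 4 lower with a sample left out (1 and 4 with all samples). For the difference between conditions, 1 pathway gene (Hif3a) passed in the lower direction with 1 added before log2, in place of 0, and 0 to 1 passed in the higher direction with a sample left out. The causes were not tested. No direction called was reversed.

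Whether the replicate numbers pair the samples is not settled, and the SEs above come from fits without pairing. Same-numbered Ctrl and NAD+ samples correlated around their group means only weakly, at r from 0.02 to 0.11 in proliferating cells and from 0.03 to 0.04 under differentiation conditions. Every sample under differentiation conditions correlated best with its own number, as did all proliferating samples but Ctrl replicate 3 and NAD+ replicate 2. For the difference between conditions, the replicate block lowered the SE of Egln1 from 0.19 to 0.10 and that of Bnip3 from 0.25 to 0.13. It raised that of Hif1a from 0.083 to 0.087 and that of Ankrd37 from 0.608 to 0.612. With the replicate block, 1 hypoxia-response gene (Ddit4) in place of 2 passed an adjusted p-value of 0.05 under differentiation conditions. Over all genes the count went from 27 to 0 in proliferating cells and from 1357 to 758 under differentiation conditions.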
